A study of Mus musculus with 6 samples.

Results

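The 8 genes described here are widely used readouts of fibroblast growth factor (Fgf) signalling through the ERK kinases. They are the ERK phosphatase gene *Dusp6*, the feedback inhibitor genes *Spry1*, *Spry2*, *Spry4* and *Spred1*, and the Pea3 subfamily ETS transcription factor genes *Etv1*, *Etv4* and *Etv5*. They were chosen by name, and their Ensembl mouse gene identifiers were looked up among 25949 probe sets, 1 per identifier. All 8 were measured. Expression was profiled on 6 Affymetrix Mouse Exon 1.0 ST arrays. Mammary buds were dissected from *Eda*-/- embryos at E13.5, from 3 litters of B6CBA background, and both groups lacked the ligand Ectodysplasin (Eda). For 4 hours the buds were kept without added protein (control, n = 3) or with recombinant Fc-Eda-A1 protein (Fc-Eda, n = 3). About 20 buds from 5 to 6 embryos were pooled for each array. Part of the buds of an embryo served as control and the other buds of the same embryo were treated, so that the arrays formed 3 pairs. Most, but not all, of the surrounding mesenchyme had been removed by hand. The identifiers other than these 8 have no gene names here, so markers of epithelium and mesenchyme were not analysed.

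Binding of an Fgf to its receptor activates Ras, Raf, MEK and finally ERK, which enters the nucleus. ERK activity turns on genes whose products restrain the cascade. Dusp6 removes phosphate from ERK in the cytoplasm, Sprouty proteins act between the receptor and Raf, and Spred1 recruits neurofibromin to switch off Ras. *Etv4* and *Etv5* are induced by Fgf in many embryonic epithelia and mesenchymes, and their products carry the signal to further genes. Fgf10 acting on Fgfr2b is needed for most mammary placodes. Eda signals through its receptor Edar and the transcription factor NF-κB.

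RefSeq promoter windows, from 250 bases before to 50 bases after a transcript start, were matched by symbol for 6 of the 8 genes. *Spry4* and *Etv4* were not matched. The windows of *Dusp6*, which had the largest difference of the 8 genes, and of *Spry2*, the gene whose difference changed direction between pairs, are shown. Capitals mark GGAA, the core of ETS factor binding sites, or TTCC, the same core on the opposite strand. The *Dusp6* window lies at chr10:99262981-99263280 (GRCm38.p6, plus strand) and the *Spry2* window at chr14:105896770-105897069 (GRCm38.p6, minus strand).
Dusp6: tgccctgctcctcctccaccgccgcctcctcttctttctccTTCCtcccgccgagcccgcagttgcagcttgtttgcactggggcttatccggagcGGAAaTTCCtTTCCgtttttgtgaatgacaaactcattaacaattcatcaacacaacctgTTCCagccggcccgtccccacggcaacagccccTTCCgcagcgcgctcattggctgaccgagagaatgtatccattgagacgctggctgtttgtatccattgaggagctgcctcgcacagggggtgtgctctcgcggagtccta
Spry2: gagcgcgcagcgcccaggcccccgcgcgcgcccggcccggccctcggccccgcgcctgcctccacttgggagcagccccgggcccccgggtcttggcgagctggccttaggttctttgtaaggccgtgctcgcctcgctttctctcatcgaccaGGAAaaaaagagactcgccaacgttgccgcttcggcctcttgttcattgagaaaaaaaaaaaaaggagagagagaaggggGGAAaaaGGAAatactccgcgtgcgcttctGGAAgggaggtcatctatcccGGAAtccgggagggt
The *Dusp6* window held the core 6 times, 1 on the strand shown and 5 on the other, and the *Spry2* window held it 5 times on the strand shown. The median over all 32851 windows was 3, and 96% of them held at least 1, as did 7 of the 8 windows of the 6 genes. Of the windows not shown, those of *Etv1* held 5 and 1, those of *Etv5* 6 and 0, that of *Spred1* 5 and that of *Spry1* 1. The window of *Dusp6* had 57.3% G and C and that of *Spry2* 62.7%, against a median of 52.7% over all windows. Longer motifs were searched on both strands. The sequence CCGGAAG, which contains GGAA, the NF-κB consensus and the AP-1 sequence TGANTCA were found in 0 of the 8 windows of the 6 genes, and in 8.86%, 8.46% and 7.81% of all windows. A match or its absence within 300 bases describes the letters only.

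*Dusp6*, *Etv4* and *Spry4* had the largest differences between Fc-Eda and control, at 1.82-fold, 1.58-fold and 1.56-fold, and in each of them every treated array lay above every control array. In 7 of the 8 genes, all except *Spry2*, Fc-Eda was higher in all 3 pairs, and in 0 of the 8 it was lower in all 3. Over all probe sets these shares were 13.2% and 15.3%. In limma with the pairs as a block, 0 of the 8 genes passed a q-value of 0.05 in either direction, as did 0 of all 25949 probe sets (0%). At an unadjusted p under 0.05 the same fit had 5 of the 8 genes higher and 0 lower, against 2.73% of all probe sets higher and 3.33% lower. IBMT, a moderated test named in the study's methods whose prior variance follows the signal level, called *Dusp6*, *Spry4* and *Etv4* higher and 0 of the 8 lower. It called 0.339% of all probe sets higher and 0.0231% lower. The remaining method, Cyber-T, was run in a form written out here (the Cyber-T type test). It called the same 3 genes higher and 0 lower, with 0.624% of all probe sets higher and 0.119% lower. A q under 0.05 in at least 1 of the 3 tests was reached by the same 3 genes, with the same shares, 0.624% and 0.119%. The arrays measure pooled tissue, in which a change in RNA per cell and a change in the share of cells of a type cannot be told apart.

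The control array of pair 1 stood apart from the other 5, so the counts are also given without pair 1, which leaves out both arrays of that pair. Its median log2 signal was 4.99, and those of the other arrays lay between 4.80 and 4.83. In pair 1 the probe sets within 0.25 of the level of *Dusp6* had a median difference of 0.13, whereas in pairs 2 and 3 the median was 0.01. The share of all probe sets that were higher in all 3 pairs was 13.2%, but among probe sets of like level it was 32.0% for *Dusp6* and between 17.4% and 32.3% for the other 7 genes. With pair 1 left out, the same 7 genes were higher in both remaining pairs, against 28.4% of all probe sets. Without pair 1 IBMT called 0 of the 8 genes and 0 probe sets in all, while the Cyber-T type test still called *Dusp6*, *Spry4* and *Etv4*. The latter then called 1.3% of all probe sets higher and 0.674% lower, more than with all pairs. After cyclic loess normalization, which fits level-dependent shifts between arrays, 7 of the 8 genes were higher in all 3 pairs, against 15.1% of all probe sets. IBMT then called 1 gene, *Dusp6*, with 0.0694% of all probe sets higher and 0.00385% lower. The same 3 genes as before were called in the Cyber-T type test, with 0.717% higher and 0.235% lower.

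**Figure D1:**
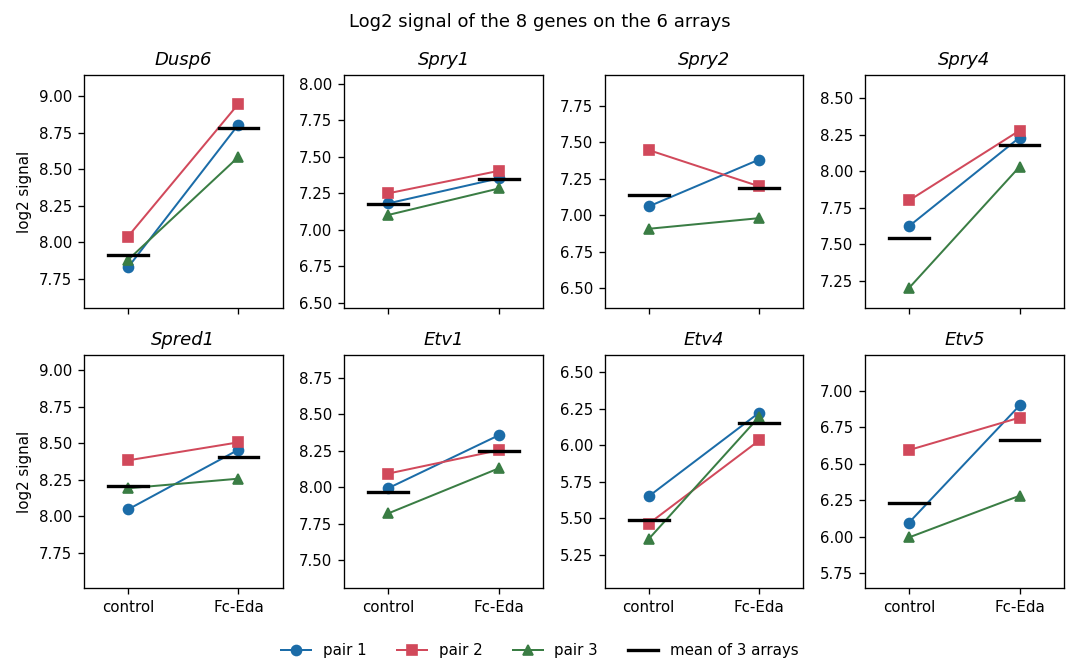
Log2 signal of each of the 8 genes on the 6 arrays, with control on the left and Fc-Eda on the right of each panel, coloured lines joining the arrays of a pair and black bars for the mean of 3 arrays. Every panel spans the same range of 1.6 on the log2 scale. The lines rise in all pairs except the pair 2 line of *Spry2*, and those of *Dusp6*, *Spry4* and *Etv4* are the steepest on average.

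*Dusp6* (ENSMUSG00000019960_at, chromosome 10) had log2 signals of 7.83, 8.04 and 7.88 in the control arrays of pairs 1, 2 and 3. With Fc-Eda the signals were 8.81, 8.95 and 8.59. The groups did not overlap, and the lowest treated array was above the highest control array by more than the whole range of the controls. The mean was 7.92 ± 0.11 (SD, n = 3) in control and 8.78 ± 0.18 with Fc-Eda. The difference of 0.87 on the log2 scale had a standard error of 0.09 in limma and a 95% interval of 0.63 to 1.10. Its q-value was 0.167 in limma, 0.00768 in IBMT and 0.000312 in the Cyber-T type test. Among all probe sets it ranked 39 from the largest rise, and 2 of the 614 others of like level had a difference as large. Without pair 1 the difference was 0.81.

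The Sprouty genes numbered 3, and they differed among themselves. *Spry4* (ENSMUSG00000024427_at, chromosome 18) had control signals of 7.63, 7.80 and 7.20 and treated signals of 8.23, 8.28 and 8.03, in the order of the pairs. The groups did not overlap, and the control of pair 3 was the lowest array. The controls spread more widely, at 7.54 ± 0.31 (SD, n = 3), than the treated arrays, at 8.18 ± 0.13. The difference was 0.64 with a standard error of 0.10 in limma (q = 0.312), and it was largest in pair 3, at 0.83, where the control was lowest. IBMT gave q = 0.0298 and the Cyber-T type test q = 0.00243. Without pair 1 the *Spry4* difference was 0.65.

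*Spry1* (ENSMUSG00000037211_at, chromosome 3) differed little, and evenly across the pairs. Its control signals were 7.18, 7.25 and 7.10 and its treated signals 7.35, 7.40 and 7.28. The groups did not overlap, with a gap far smaller than in *Dusp6* or *Spry4*. The difference was 0.17, 0.15 and 0.18 in the 3 pairs, an SD of 0.014, where probe sets of like level had a median SD of 0.11. The standard error in limma, which draws the variance towards that of all probe sets, was 0.08, the 95% interval ran from -0.03 to 0.37, and q was 0.742. In pair 1 the probe sets of like level had a median difference of 0.14, so that the *Spry1* value of that pair was close to it, and after cyclic loess it was 0.05.

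*Spry2* (ENSMUSG00000022114_at, chromosome 14) had no common direction. Its control signals were 7.06, 7.45 and 6.91 and its treated signals 7.38, 7.20 and 6.98. The groups overlapped throughout. The difference was 0.32 in pair 1, -0.25 in pair 2 and 0.07 in pair 3, with a mean of 0.05 and a 95% interval of -0.28 to 0.38 in limma (q = 0.814). The interval spans the *Etv1* and *Spry1* differences, so that a rise of their size was not detectable here. Without pair 1 the mean *Spry2* difference was -0.088.

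*Spred1* (ENSMUSG00000027351_at, chromosome 2), which encodes a relative of the Sprouty proteins, had control signals of 8.05, 8.38 and 8.19 and treated signals of 8.46, 8.51 and 8.26. The groups overlapped, since the treated array of pair 3 was below the control of pair 2. The difference was 0.20 with a standard error of 0.10 in limma (95% interval -0.06 to 0.46, q = 0.751). It came mainly from pair 1, at 0.41, against 0.12 and 0.07 in pairs 2 and 3, and without pair 1 it was 0.09.

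The 3 Pea3 genes were all higher with Fc-Eda in every pair. On average *Etv4* differed by the most, although in pair 1 *Etv5* had the larger difference, 0.80 against 0.57. *Etv4* (ENSMUSG00000017724_at, chromosome 11) had control signals of 5.65, 5.46 and 5.36 and treated signals of 6.22, 6.03 and 6.19. The groups did not overlap. The mean was 5.49 ± 0.15 (SD, n = 3) in control and 6.15 ± 0.10 with Fc-Eda, a difference of 0.66 with a standard error of 0.10 in limma (q = 0.259). IBMT gave q = 0.0415, close to the threshold, and the Cyber-T type test q = 0.0082. At the signal level of *Etv4* the shift of pair 1 was small, with a median difference of 0.04. Without pair 1 the *Etv4* difference was 0.70.

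*Etv5* (ENSMUSG00000013089_at, chromosome 16) varied most between replicates. Its control signals were 6.10, 6.60 and 6.00 and its treated signals 6.90, 6.82 and 6.28. The groups overlapped, because the control of pair 2 was above the treated array of pair 3. The SD of 0.32 in control and 0.34 with Fc-Eda was nearly as large as the difference of 0.44, which had a standard error of 0.14 in limma (95% interval 0.08 to 0.79, q = 0.645). IBMT and the Cyber-T type test gave q = 0.331 and q = 0.127. The difference was 0.80 in pair 1 and 0.22 and 0.29 in the others, and without pair 1 it was 0.25.

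*Etv1* (ENSMUSG00000004151_at, chromosome 12) had control signals of 7.99, 8.09 and 7.82 and treated signals of 8.35, 8.25 and 8.13. The groups did not overlap, although the lowest treated array was above the highest control array by less than 0.05. The difference was 0.28 with a standard error of 0.09 in limma (95% interval 0.06 to 0.50, q = 0.64). The pair differences were 0.36, 0.16 and 0.31, and the q-value was 0.22 in IBMT and 0.161 in the Cyber-T type test. Without pair 1 the *Etv1* difference was 0.23.

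**Figure D2:**
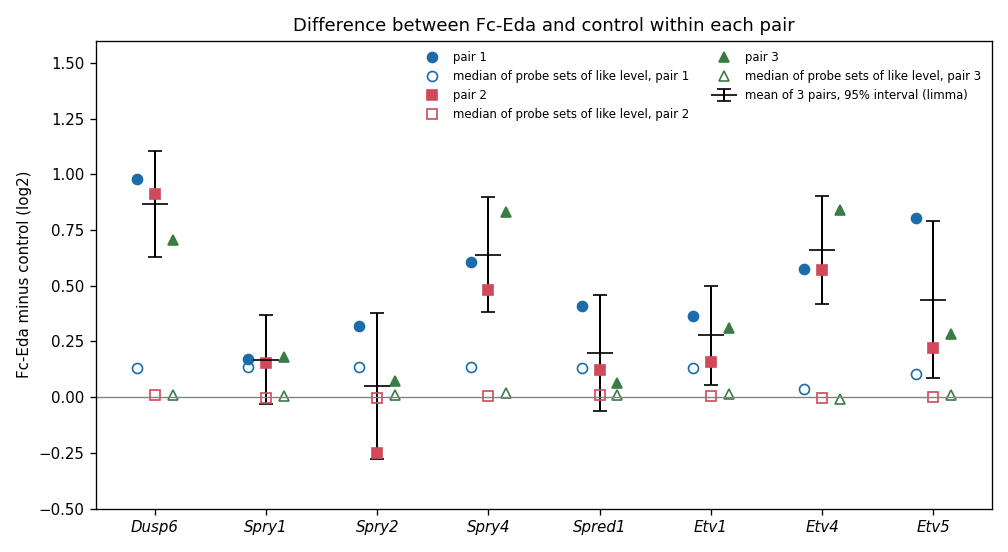
Difference between Fc-Eda and control on the log2 scale, with filled symbols for the 3 pairs, black bars for the mean and its 95% interval from limma, and open symbols for the median of the probe sets within 0.25 of the same level. The intervals of *Dusp6*, *Spry4* and *Etv4* begin at 0.63, 0.38 and 0.42, those of *Spry1*, *Spry2* and *Spred1* reach below 0, and the open symbols of pair 1 lie above those of pairs 2 and 3.

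As a group, the 8 genes had a median difference of 0.36, against -0.02 over all probe sets. A mean difference above 0.5 was seen in 3 of the 8 genes and in 0.728% of all probe sets. The groups did not overlap, with Fc-Eda higher, in 5 of the 8 genes and in 3.98% of all probe sets. With Fc-Eda lower, this was so in 0 of the 8 genes and in 5.11% of all probe sets. Among probe sets of like level the share with Fc-Eda higher was between 6.20% and 8.94%.

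Whether *Dusp6* stood alone was asked within each pair, by subtracting the difference of another gene from that of *Dusp6*, which cancels any shift common to both genes on an array. A shift that depends on signal level does not cancel fully. In pair 1 the median difference of probe sets of like level was 0.13 for *Dusp6* and 0.04 for *Etv4*. Against *Etv4* the remainder was 0.41, 0.34 and -0.13 in the 3 pairs, with a mean of 0.20 ± 0.29 (SD, n = 3 pairs). Against *Spry4* it was 0.37, 0.43 and -0.12, with a mean of 0.23 ± 0.30. In both cases *Dusp6* had the larger difference in 2 of 3 pairs, and the mean was smaller than the spread between pairs (exact two-sided sign-flip permutation test, p = 0.5 for each, also after Benjamini-Hochberg adjustment over 7 comparisons). With a pair left out, the mean against *Etv4* ranged from 0.10 without pair 1 to 0.37 without pair 3, and that against *Spry4* from 0.12 without pair 2 to 0.40 without pair 3.

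Against the other 5 genes *Dusp6* had the larger difference in all 3 pairs. The mean remainder was 0.43 ± 0.26 (SD, n = 3 pairs) for *Etv5*, 0.59 ± 0.18 for *Etv1*, 0.67 ± 0.11 for *Spred1*, 0.70 ± 0.15 for *Spry1* and 0.82 ± 0.30 for *Spry2*. Each exact permutation p was 0.25, the smallest that 3 pairs allow, and 0.35 after adjustment over the 7 comparisons. On the deposited values *Dusp6*, *Etv4* and *Spry4* passed together in IBMT and in the Cyber-T type test, and all of them missed the threshold in the default limma fit. All 3 were also called when limma used an intensity trend with robust moderation, and when it was fitted to brighter probe sets alone, those above the median level. The first of these fits called 0.347% of all probe sets higher and 0.0231% lower, and the second 0.655% and 0.0462% of the 12974 it tested. *Dusp6* was the only 1 of the 8 genes called by limma on arrays centred on the median, which called 0.216% of all probe sets higher and 0.00385% lower, and by IBMT after cyclic loess. The differences of *Spry4* and *Etv4* in these settings were 0.70 and 0.72 after centring and 0.59 and 0.66 after cyclic loess. Centring raised every pair 1 difference, because the control of that pair had a median of 4.99 against 4.80 with Fc-Eda. At the level of *Dusp6*, probe sets already had a median pair 1 difference of 0.13 before centring.

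**Figure D3:**
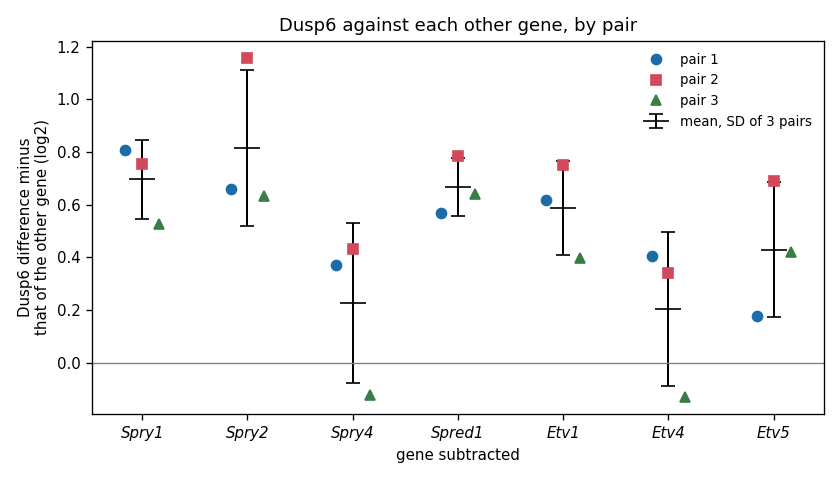
Difference of *Dusp6* between Fc-Eda and control minus that of each other gene, in log2 units, with symbols for the 3 pairs and black bars for the mean and SD. The pair 3 symbols of *Spry4* and *Etv4* lie just below 0, at -0.12 and -0.13, and all symbols of the other 5 genes lie above 0.

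Apart from the treatment, most of the genes had the same highest control array and the same lowest treated array. Among the control arrays, that of pair 2 was the highest in 7 of the 8 genes, all except *Etv4*, against 26.8% of all probe sets and 46.6% of those in the level range of the 8 genes. Among the treated arrays, that of pair 3 was the lowest in 7 of the 8, again all except *Etv4*, against 33% of all probe sets and 44.8% of those in that range. Both counts were 7 also with each array centred on its median, but centring could not have lowered them. The control of pair 2 had the lowest median among the controls, and the treated array of pair 3 the highest among the treated arrays. No full order of replicates was common to the genes, since the highest treated array was that of pair 1 in 4 genes and of pair 2 in 4, and the lowest control was that of pair 3 in 6 genes and of pair 1 in 2 (4 and 4 after centring). The spread of the control arrays was widest in *Etv5* (SD 0.32), *Spry4* (0.31) and *Spry2* (0.28) and narrowest in *Spry1* (0.07). Pool and array differ together between replicates and cannot be told apart, and the sample titles do not tie the 3 litters to replicate numbers.

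Over the 6 arrays, the gene most like *Dusp6* in its profile was *Spry1*, with a Pearson correlation of 0.93. It was followed by *Spry4* at 0.91, *Etv4* at 0.88, *Etv1* at 0.87 and *Spred1* at 0.80. *Etv5* was at 0.79 and *Spry2* at 0.30. These values are a description over 6 arrays that share the division into control and Fc-Eda, and among the 12973 other probe sets above the median level 118 were more like *Dusp6* than *Spry1* was.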

How the data were processed

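Expression was measured in 3 control and 3 Fc-Eda pools on Affymetrix exon arrays. The deposited table holds a log2 value of each of 25949 probe sets, listed by Ensembl identifier, on every array. RMA is named in the submitters' processing notes, and the probe set definition and build are not given in the sources used here. Groups and replicate numbers come from the sample titles. The numbers pair the arrays, since the buds of an embryo were divided between both conditions. The deviations of paired arrays correlated with r = 0.079, 0.29 and 0.29 across probe sets. Precision is limited by the number of arrays.

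The main model, limma 3.58.1 (R 4.3.3) on all probe sets, had terms for treatment and pair, and q-values followed Storey (threshold 0.05). IBMT (loess span 0.75) and a Cyber-T type test (window 101, prior weight 10) were written out anew from their published descriptions and, with limma, tested on simulated data. Defaults of the original programs may differ. Gene names of the 8 probe sets are those of the rule that chose them. The reference table paired 0 of the identifiers with a name, so the lists of other ERK readouts, Fgf genes, cascade genes, immediate early genes, NF-κB genes and cell type markers were not analysed. The genes and lists were chosen with earlier results of these data known. The rule for named genes was all 8 genes, and the 5 named probe sets above the median level most correlated with *Dusp6*. The second part could not be carried out, since no other identifier had a name. Alternatives were other tests, adjustments, normalizations, a level filter, no block and leaving out each pair.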

Additional observations from a re-analysis of the deposited data

How the results depend on the processing

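In limma with the pairs as a block, 0 of the 8 genes were called higher and 0 lower. The count of genes called lower was 0 under every alternative run. The count called higher was 3 in IBMT, in the Cyber-T type test, with q under 0.05 in at least 1 of 3 tests, in limma with trend and robust moderation together and among probe sets above the median level. It was 4 in the methods' t-test without adjustment, the unpaired test of the general statistics section, which ignores the pairs, where 1.98% of all probe sets were higher and 2.08% lower. It was 1 with arrays centred on the median, where the shares were 0.216% and 0.00385%. In these settings *Dusp6* passed the threshold, at a difference of 0.92 after centring, which raised every pair 1 difference, and 0.87 in the others. With no replicate block the count was 0, with 0.0116% of all probe sets called higher, and the *Dusp6* difference 0.87. It also stayed at 0 with Benjamini-Hochberg adjustment, in the methods' t-test after that adjustment, and after quantile normalization or cyclic loess, where *Dusp6* differed by 0.83 and 0.82. Leaving out each pair in limma gave a count of 0, with between 0 and 0.0385% of all probe sets higher and between 0 and 0.00385% lower, and *Dusp6* differences between 0.81 and 0.94.

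The following settings were chosen after seeing the data. A plain paired t-test, since the array methods name pairing, called 5 genes without adjustment, with *Dusp6* at 0.87 and *Etv1* among them and 3.09% of all probe sets higher and 2.68% lower, and 0 after Benjamini-Hochberg adjustment. When each pair was left out, IBMT and the Cyber-T type test called between 0 and 4 genes, with *Dusp6* at 0.84 without replicate 2. The 0 was IBMT without pair 1, where it called no probe set at all, and the 4 were *Dusp6*, *Spry4*, *Etv4* and *Etv5* in IBMT without pair 3, where it called 0.987% of all probe sets higher and 1.04% lower. Without pair 2 IBMT did not call *Etv4*, at a difference of 0.71 (0.208% of all probe sets higher, 0.00771% lower), nor did the Cyber-T type test without pair 3, at 0.57 (0.301% and 0.0963%). Without pair 2 the latter test called 3 genes, with shares of 0.316% and 0.0308%. After cyclic loess IBMT called 1 gene, *Dusp6* at 0.82, and the Cyber-T type test 3. The *Spry2* difference reversed to -0.088 without replicate 1 in all 3 tests and was 0.20 without replicate 2, and the other 7 genes kept their direction in all 25 alternatives. *Spry1* was called in 2 of the 25, the unadjusted t-tests. The remainders of *Dusp6* against the other genes kept their direction with each pair left out. The cause of these changes was not tested. No detection calls were used, so precision at low signal was not judged.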
